A study of Homo sapiens with 8 samples.

Results

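The genes described here build and run the DNA replication fork: the subunits that mark and license origins, the replicative helicase, the clamp, the polymerases and the proteins that finish and package the new strands. They were chosen by symbol from a list of 52 such genes, and all 52 were measured among 19775 genes. No cutoff on their values was used, but the list was made with earlier results of these data known. Among probe sets annotated to 1 symbol alone, the brightest on average across the 8 arrays stood for its gene. The members matched a total of 95 such probe sets.

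RNA came from K562, an established human leukaemia line with erythroid features. Every culture stably carried p42-C/EBPa-ER, the full-length myeloid transcription factor C/EBPα joined to the oestrogen receptor, and grew without phenol red in charcoal-stripped serum. One group of 4 arrays received 1 µM beta-estradiol and the other group of 4 received ethanol vehicle, each for 6 h. The sample titles call the arrays biological replicates, and the p-values measure the spread between them. The promoter of the transgene, whether the line was 1 clone, and K562 without the fusion given estradiol are not described in the sources used here. A difference below is therefore one between estradiol and vehicle in cells with the fusion. Each value is a log2 RMA level, the background-corrected and array-normalized brightness of a probe set on a log2 scale.

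In G1 the origin recognition complex binds DNA and, with CDC6 and CDT1, loads the ring-shaped MCM2-7 helicase, a step called licensing. Geminin blocks CDT1 once S phase begins, the CDC7-DBF4 kinase fires the origin, and CDC45 and GINS turn MCM2-7 into the active helicase. Many of these genes are known targets of E2F factors, and C/EBPα is known as a brake on proliferation and on E2F activity in myeloid precursors.

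Most replication genes stood higher after estradiol, by small amounts. Of the 52 members 23 rose, 1 fell (ORC5) and 28 did not pass the test (limma, Benjamini-Hochberg adjusted p below 0.05 over all genes). Among all 19775 genes 8.29% rose and 9.60% fell, 17.9% in all. The rises ran from 0.14 to 0.57 on the log2 scale, 1.10-fold to 1.49-fold, and 0 of the 52 genes reached a 1.5-fold change. The median log2 change of the members was 0.14, against −0.03 over all genes. A positive change was seen in 46 of 52 members and in 41.2% of all genes. Estradiol and vehicle values were fully separate, in either direction, for 34 members (65.4%), against 24.1% of all genes. Estradiol was higher in 32 of these 34 members, and in 2203 of the 4758 separate genes among all genes.

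The members were well measured compared with the array as a whole, with a median level of 9.89 against 5.94 over all genes, and brighter genes are called more often. Among the 5415 genes with a mean level of at least 8, a limit set after the values were seen, 1527 rose and 1460 fell, 55.2% called in all. Within that set 33 of 49 members rose and 1 fell. The median log2 change was 0.13 for those members and 0.006 for all genes of the set. More cells in S phase and more RNA of these genes in each cell cannot be told apart in bulk RNA.

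**Figure D1:**
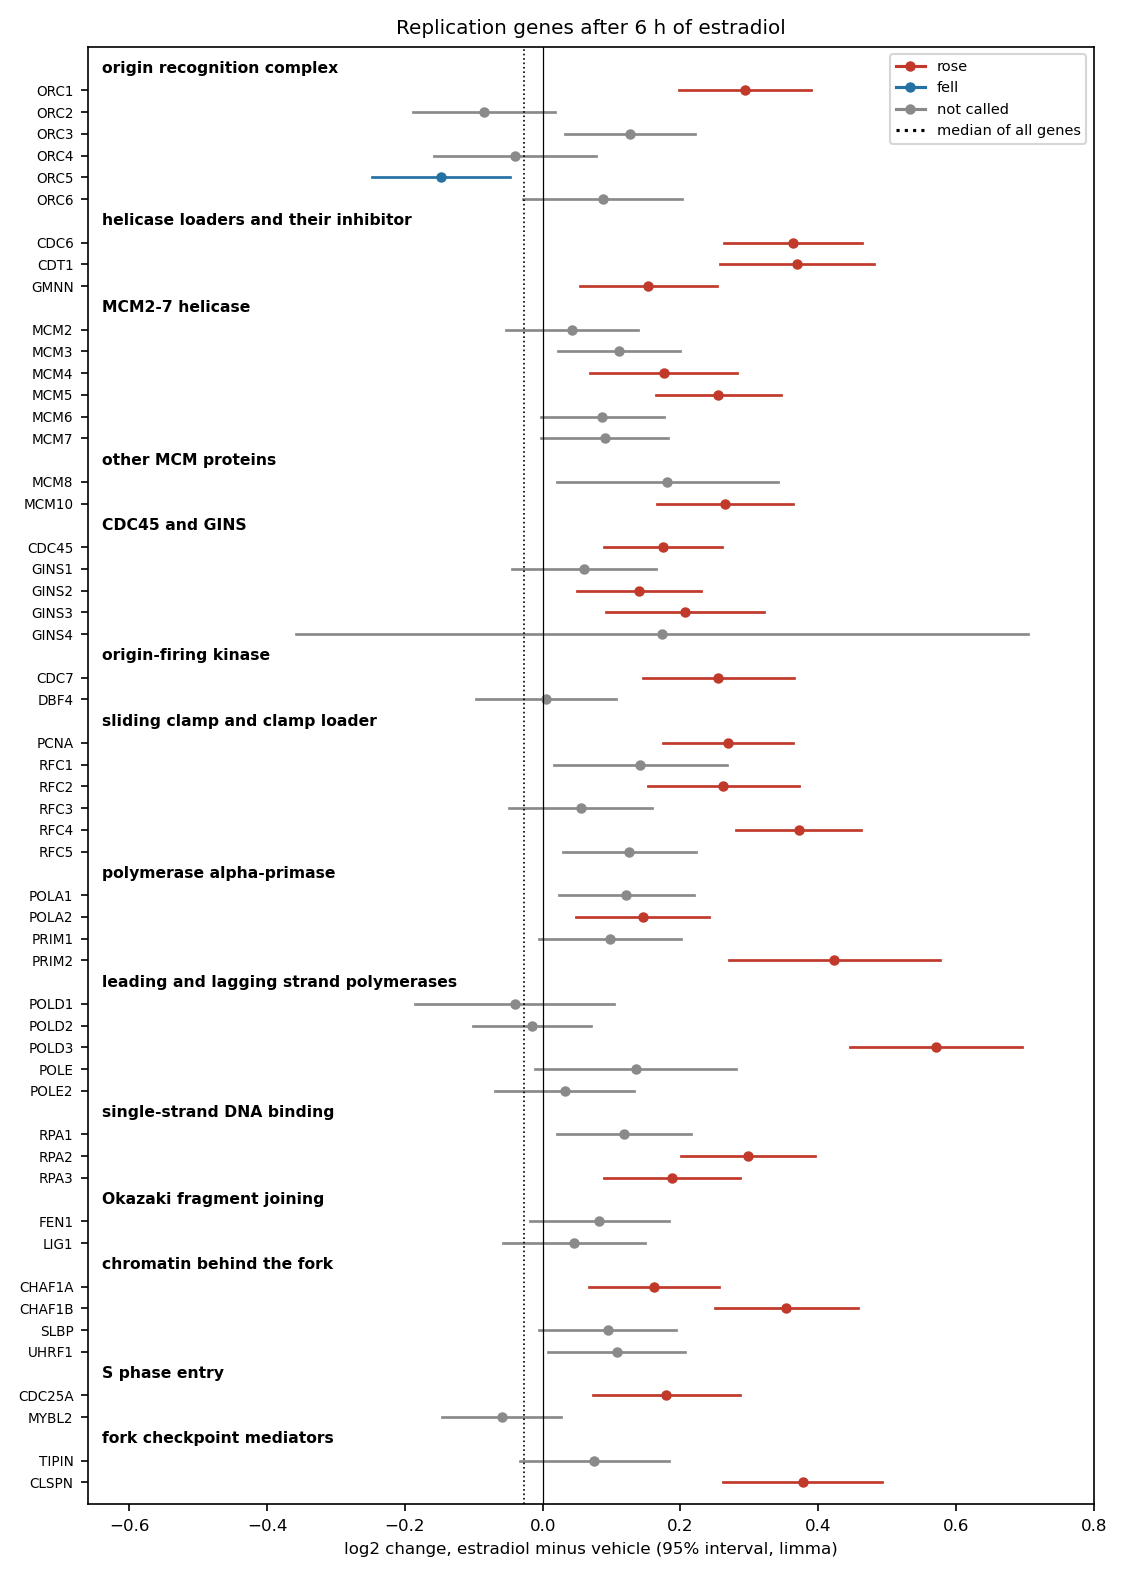
Log2 change (estradiol minus vehicle, 4 arrays against 4) of each of the 52 members, in groups by role. Points are limma estimates and lines are 95% intervals. Red genes rose, the blue gene fell and grey genes were not called, and the dotted line is the median of all genes at −0.03. POLD3 lies farthest to the right at 0.57, and GINS4 has the widest interval.

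Single arrays bear on these counts. Vehicle replicate 2 had the lowest value of all 8 arrays for 34 of the 52 members, and among the 4 vehicle arrays it was lowest for 38 members and for 43.6% of all genes. Relative to each gene's vehicle mean, the members had a median of −0.06 on vehicle replicate 2 and of 0.01 to 0.04 on the other vehicle arrays. On the estradiol arrays this median was 0.11 to 0.18. Without vehicle replicate 2, 20 members rose, 1 fell and the median change was 0.12. Without estradiol replicate 4, 15 members rose and 0 fell, the lowest count with 1 array left out. The share of all genes that rose was lower in both runs as well. It was 7.55% without vehicle replicate 2 and 6.45% without estradiol replicate 4, against 8.29% with all 8 arrays. The call of 14 rises (ORC1, CDC6, CDT1, MCM5, MCM10, CDC7, PCNA, RFC2, RFC4, PRIM2, POLD3, RPA2, CHAF1B and CLSPN) held in every alternative run at the same threshold that tested them. PRIM2 and CLSPN, at mean levels of 7.66 and 6.98, were not tested under the filter at a mean of at least 8. The other 9 (GMNN, MCM4, CDC45, GINS2, GINS3, POLA2, RPA3, CHAF1A and CDC25A) lost it in at least 1.

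**Figure D2:**
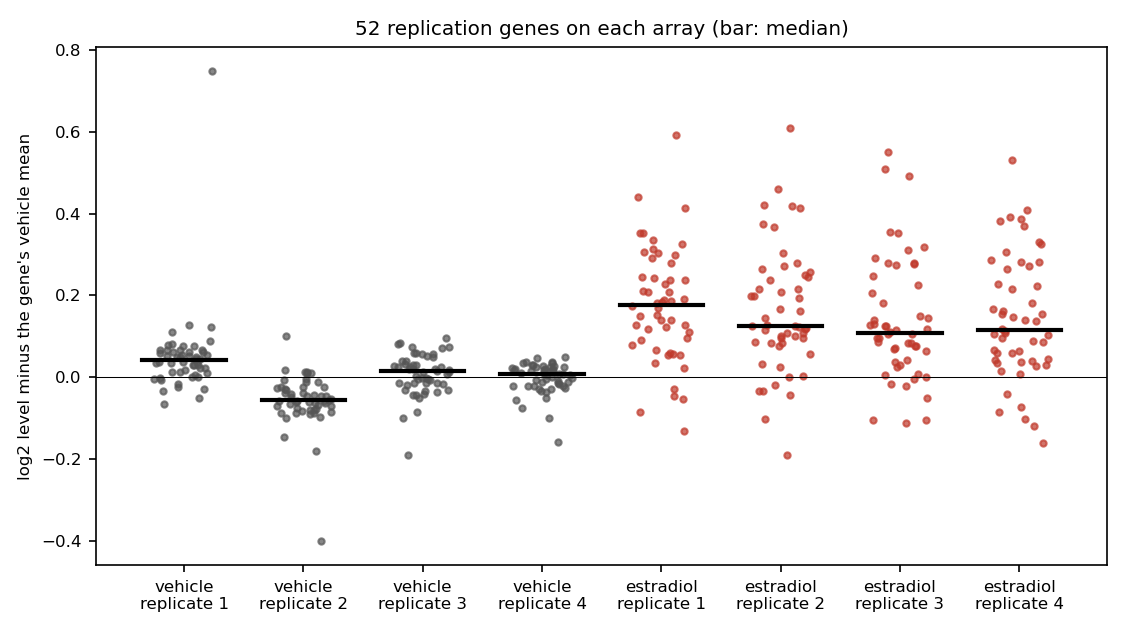
Each point is 1 of the 52 members on 1 array, as its log2 level minus that gene's mean over the 4 vehicle arrays, and bars are medians. The estradiol medians lie between 0.11 and 0.18. The vehicle medians lie between −0.06 (replicate 2) and 0.04 (replicate 1), and the highest vehicle point, 0.75 on replicate 1, is GINS4.

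Promoter sequence was not used to choose the members. RefSeq promoters (GRCh38.p14, 250 bases before to 50 after a start) were found for 46 of the 52 members, 59 promoters in all. They were searched on both strands for the E2F words TTTCCCGC, TTTGGCGC, TTTGCCGC and TTTCGCGC. At least 1 word stood in the promoters of 24 of the 46 members, 52.2%, against 3.99% of 27305 genes in the table. Counted by promoter, the shares were 42.4% of 59 and 3.31% of 35116. Of 72 other pathway genes with a promoter, described further below, 19.4% held a word. The following stretches, all before the start and 5′ to 3′ on the gene's strand, show the word in 5 members that rose and in 3 that were not called. Capitals mark the E2F words in either orientation.
CDT1 (rose), chr16:88803724-88803788, plus strand: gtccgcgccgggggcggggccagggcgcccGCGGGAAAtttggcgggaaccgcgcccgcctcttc
PCNA (rose), chr20:5126644-5126711, minus strand: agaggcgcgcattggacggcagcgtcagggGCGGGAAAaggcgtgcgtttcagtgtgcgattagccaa
GINS2 (rose), chr16:85688955-85689015, minus strand: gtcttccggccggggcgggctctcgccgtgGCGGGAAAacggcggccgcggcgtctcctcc
POLA2 (rose), chr11:65261879-65261946, plus strand: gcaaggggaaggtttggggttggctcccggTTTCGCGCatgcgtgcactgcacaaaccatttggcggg
CDC25A (rose), chr3:48188424-48188491, minus strand: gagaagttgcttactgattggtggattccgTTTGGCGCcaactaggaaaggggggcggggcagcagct
MCM3 (not called), chr6:52284879-52284946, minus strand: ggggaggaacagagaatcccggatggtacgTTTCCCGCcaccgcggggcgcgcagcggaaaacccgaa
MCM6 (not called), chr2:135876496-135876563, minus strand: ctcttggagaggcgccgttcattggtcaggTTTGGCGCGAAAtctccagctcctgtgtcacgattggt
LIG1 (not called), chr19:48170421-48170488, minus strand: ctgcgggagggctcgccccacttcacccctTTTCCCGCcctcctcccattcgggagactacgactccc

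None of these 8 stretches overlaps a gene in the RefSeq table. In MCM6 the capitals cover 12 bases, because TTTGGCGC on the gene's strand and TTTCGCGC on the other strand overlap there, and a further such pair stands 152 bases before the start. The word was found both in members that rose and in members that did not pass. It was present for 10 of 18 risers with a promoter and for 14 of 27 members that were not called. The median log2 change was 0.13 with the word and 0.11 without it. A match of letters is a description and not a binding site.

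3 other motifs were searched in the same windows. CCAAT, the letters bound by NF-Y, stood in promoters of 27 of 46 members, 58.7%, against 39.7% of all genes. The E-box CACGTG, bound by MYC and its relatives, was found for 9 of 46, 19.6%, against 8.77%. TTGCNNAA, a short form of the C/EBP element, was found for 4 of 46 (CDC7, POLD1, TIPIN and CLSPN), 8.70%, against 12.7%. Among the 72 other pathway genes the shares were 58.3% for CCAAT, 12.5% for the E-box and 9.72% for the C/EBP element. The share of CCAAT there was thus close to that of the members. Matches of different motifs may overlap.

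**Figure D3:**
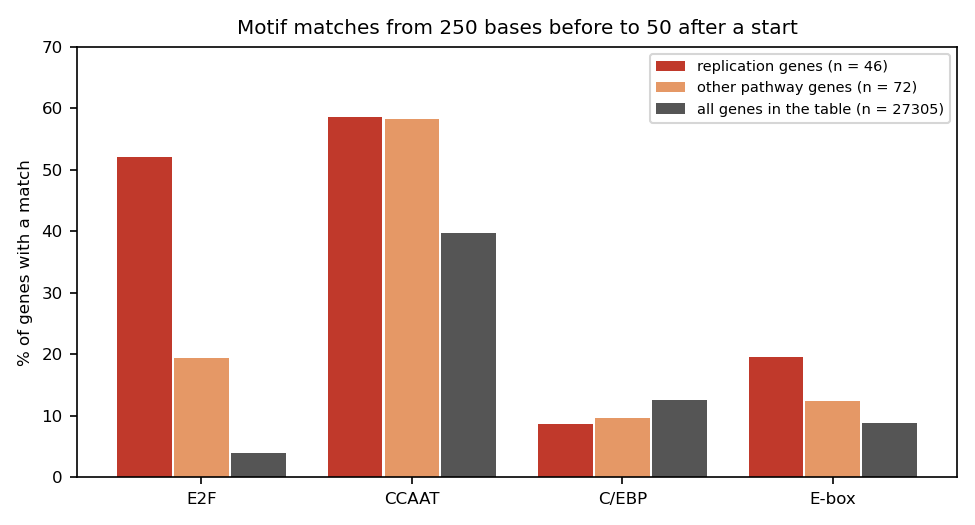
Share of genes with at least 1 match, on either strand, from 250 bases before to 50 bases after a RefSeq start. Bars give the 46 members, 72 other pathway genes and all 27305 genes of the table. E2F words stood at 52.2% of members, 19.4% of other pathway genes and 3.99% of all genes. The C/EBP word stood at 8.70%, 9.72% and 12.7%, and CCAAT at 58.7%, 58.3% and 39.7%.

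The origin recognition complex, which marks origins and recruits the loaders, moved in both directions. ORC1, the largest subunit, had log2 levels of 9.64, 9.56, 9.58 and 9.61 with estradiol and 9.34, 9.24, 9.33 and 9.30 with vehicle. Every estradiol array was above every vehicle array, a rise of 0.29 ± 0.04 (SE, adjusted p = 0.00121). ORC5, an ATP-binding core subunit, went the other way, with levels of 9.89, 9.83, 9.92 and 9.86 against 10.09, 9.98, 9.98 and 10.05. These did not overlap either, but the fall of 0.15 on the log2 scale passed narrowly (adjusted p = 0.0495). That call was lost without any 1 array except vehicle replicate 2 (adjusted p from 0.0701 to 0.134), with the mean of its 3 probe sets (−0.07) and with arrays centred on their medians. ORC2, a core subunit, differed by −0.09 ± 0.05 and ORC4 by −0.04 ± 0.05, with overlapping groups. ORC3 differed by 0.13 ± 0.04 (adjusted p = 0.0706, or 0.0385 without vehicle replicate 1) and ORC6, which helps load the helicase, by 0.09 ± 0.05.

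The unequal change of ORC1 and ORC2 was tested within arrays. The log2 difference ORC1 minus ORC2 averaged 0.68 ± 0.02 (SD, n = 4) on estradiol arrays and 0.30 ± 0.05 on vehicle arrays, a shift of 0.38 with no overlap. Its exact two-sided permutation p was 0.0286, the smallest that 4 against 4 arrays allow, and 0.0381 after Benjamini-Hochberg adjustment over the 4 gene pairs tested. Averaging each gene's probe sets gave a shift of 0.41, and its adjusted exact p was 0.0571, which did not pass. With 4 pairs of which 3 reached that smallest value, no finer ranking of the pairs is possible.

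Both helicase loaders rose. CDC6, the ATPase that joins the origin complex, read 9.78, 9.84, 9.78 and 9.76 with estradiol and 9.46, 9.34, 9.43 and 9.46 with vehicle. Every estradiol array lay above every vehicle array, and the rise was 0.36 ± 0.04 (SE, adjusted p = 0.000451), with 0.50 on its other probe set. CDT1, which brings MCM2-7 to the origin and whose promoter stretch is printed above, read 9.87, 9.80, 9.71 and 9.81 against 9.36, 9.45, 9.49 and 9.41. It rose by 0.37 ± 0.05 (adjusted p = 0.000785), again without overlap. Its other probe set showed 0.09 and was not called, and the mean of both gave 0.23. The probe set used ends in _x_at, a mark of probes that may also match other transcripts.

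GMNN, geminin, the inhibitor of CDT1, read 12.13, 11.99, 12.02 and 12.05 with estradiol and 11.93, 11.89, 11.88 and 11.89 with vehicle. The groups did not overlap and the rise was 0.15 ± 0.04 (adjusted p = 0.0407). It no longer passed when any 1 of estradiol replicates 1, 3 and 4 or vehicle replicates 2, 3 and 4 was left out (adjusted p from 0.0611 to 0.103). CDT1 minus GMNN was −2.25 ± 0.05 (SD, n = 4) with estradiol and −2.47 ± 0.07 with vehicle, so the loader rose by 0.22 more than its inhibitor (exact permutation p = 0.0286, adjusted p = 0.0381 over 4 pairs). With the mean of all probe sets that shift was 0.08 (exact permutation p = 0.0571, adjusted p = 0.0762).

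The 6 subunits of the MCM2-7 helicase all had positive changes, and 2 of them rose. MCM5 read 10.68, 10.65, 10.63 and 10.67 with estradiol and 10.42, 10.35, 10.40 and 10.45 with vehicle, a rise of 0.25 ± 0.04 (SE, adjusted p = 0.00207) that its other probe set shared (0.21). MCM4 read 10.61, 10.57, 10.46 and 10.55 against 10.39, 10.38, 10.40 and 10.32, a rise of 0.18 ± 0.05 (adjusted p = 0.0304). Both subunits had groups that did not overlap. MCM4 no longer passed when any 1 of estradiol replicates 1, 2 and 4 or vehicle replicates 3 and 4 was left out (adjusted p from 0.0596 to 0.0930), while its 4 other probe sets showed 0.10 to 0.26.

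The remaining ring subunits did not pass the test. MCM3 read 11.19, 11.19, 11.15 and 11.19 with estradiol and 11.05, 11.06, 11.13 and 11.05 with vehicle, a difference of 0.11 ± 0.04 (SE, adjusted p = 0.0917). MCM7 read 11.70, 11.67, 11.63 and 11.61 against 11.57, 11.54, 11.55 and 11.60, a difference of 0.09 ± 0.04. MCM6 read 11.97, 11.98, 11.98 and 11.94 against 11.94, 11.85, 11.85 and 11.89, a difference of 0.09 ± 0.04. In each of these 3 genes the lowest estradiol array stood above the highest vehicle array, by a small step. MCM2 read 11.45, 11.50, 11.44 and 11.45 against 11.41, 11.35, 11.48 and 11.44, overlapping groups with a difference of 0.04 and a 95% interval of −0.05 to 0.14.

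Beyond the ring, MCM10, a factor that helps the helicase start and stay on DNA, rose by 0.26 ± 0.04 (SE, adjusted p = 0.00266), with 0.33 and 0.34 on its other probe sets. Its estradiol arrays stood at 9.89 to 9.98 and its vehicle arrays at 9.61 to 9.71, without overlap. MCM8, which works in recombination repair with MCM9, differed by 0.18 ± 0.07 (adjusted p = 0.126), with overlapping groups.

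CDC45 and the GINS complex complete the active helicase. CDC45 read 11.83, 11.87, 11.81 and 11.83 with estradiol and 11.69, 11.67, 11.64 and 11.64 with vehicle, a rise of 0.17 ± 0.04 (SE, adjusted p = 0.0112) without overlap. GINS3 rose by 0.21 ± 0.05 (adjusted p = 0.0205), which did not pass with estradiol replicate 1 or 4 or vehicle replicate 4 left out (adjusted p from 0.0510 to 0.0613). GINS2 rose by 0.14 ± 0.04 (adjusted p = 0.0403), a call lost without any 1 array (adjusted p from 0.0561 to 0.105) and with the mean of its 3 probe sets (0.06). GINS1 differed by 0.06 ± 0.05 without passing. GINS4 had the most scattered values of all members, 7.86, 7.59, 8.12 and 7.65 against 8.38, 7.23, 7.44 and 7.47. Vehicle replicate 1 exceeded every other array there, and the difference of 0.17 had a 95% interval of −0.36 to 0.70. It was 0.42 without vehicle replicate 1 and 0.04 without vehicle replicate 2, and passed in neither case. Without estradiol replicate 3 it was 0.07 and without vehicle replicate 3 it was 0.11.

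In the kinase that fires licensed origins, the catalytic subunit rose and its activator did not pass. CDC7 read 9.60, 9.63, 9.64 and 9.72 with estradiol and 9.47, 9.32, 9.39 and 9.38 with vehicle, a rise of 0.26 ± 0.05 (SE, adjusted p = 0.00556). DBF4 read 10.64, 10.59, 10.62 and 10.65 against 10.68, 10.53, 10.64 and 10.63. Its groups overlapped fully, with a difference of 0.01 and a 95% interval of −0.10 to 0.11. CDC7 minus DBF4 shifted from −1.23 ± 0.02 (SD, n = 4) to −0.98 ± 0.05, by 0.25 (exact permutation p = 0.0286, adjusted p = 0.0381 over 4 pairs). Each of these genes had 1 probe set, so averaging probe sets could not change this shift. In that run its exact permutation p stayed at 0.0286. The adjusted p was 0.0571 there because CDT1 minus GMNN no longer reached that value.

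PCNA, the clamp that ties polymerases to DNA, read 12.58, 12.50, 12.56 and 12.55 with estradiol and 12.29, 12.22, 12.30 and 12.31 with vehicle. The groups were apart and the rise was 0.27 ± 0.04 (SE, adjusted p = 0.00189). Of the 5 subunits of replication factor C, which opens the clamp and sets it on DNA, 2 rose. RFC4 read 11.28, 11.23, 11.18 and 11.25 against 10.90, 10.84, 10.86 and 10.86, a rise of 0.37 ± 0.04 (adjusted p = 0.000217), 1.29-fold. RFC2 rose by 0.26 ± 0.05 (adjusted p = 0.00501), with 0.28 on its other probe set. RFC1, the large subunit, differed by 0.14 ± 0.06 and RFC5 by 0.13 ± 0.04, while RFC3 differed by 0.06 ± 0.05. None of these 3 passed, with adjusted p of 0.125, 0.0787 and 0.506, and the groups of RFC5 alone did not overlap.

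**Figure D4:**
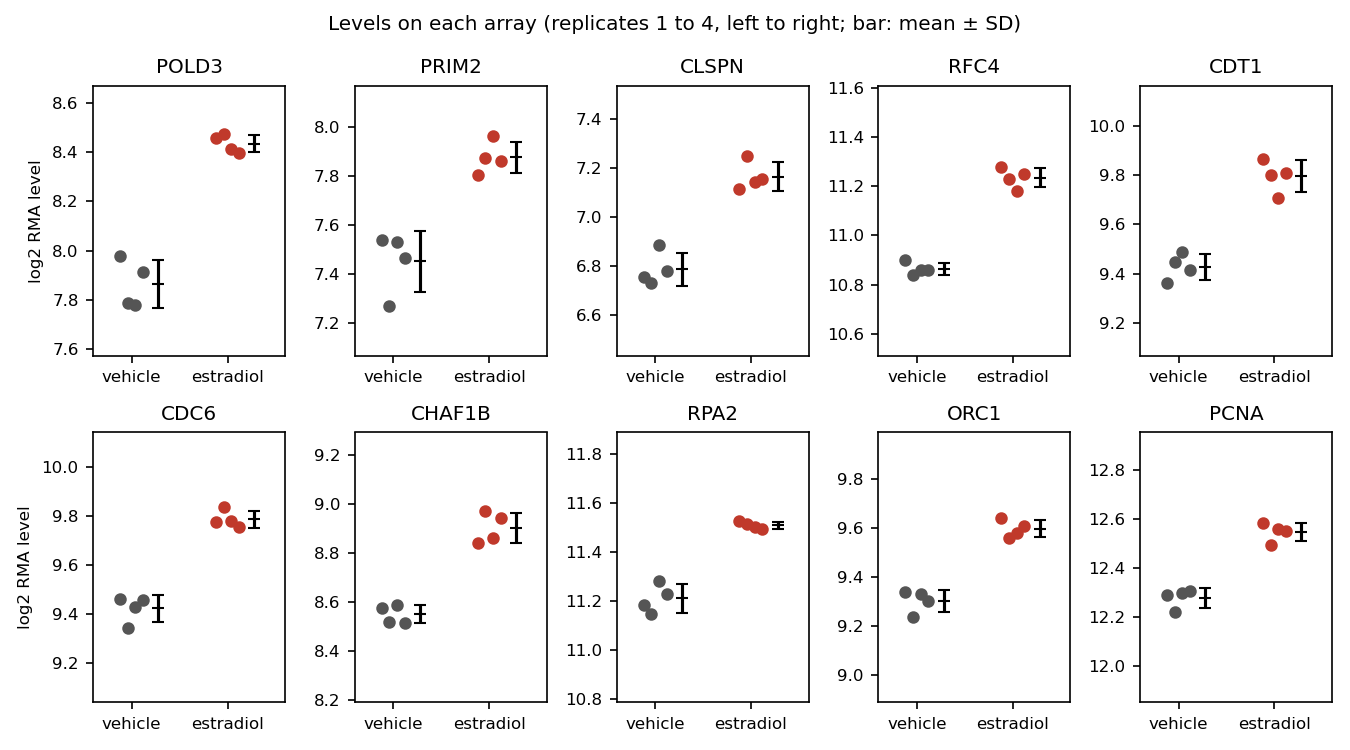
Log2 RMA levels on each array for the 10 called members with the largest changes, with vehicle in grey and estradiol in red, and with the mean ± SD of each group (n = 4). Each panel spans the same number of log2 units. In all 10 panels the lowest estradiol array lies above the highest vehicle array.

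Polymerase alpha-primase lays the RNA-DNA primers. PRIM2, the large primase subunit, read 7.80, 7.87, 7.96 and 7.86 with estradiol and 7.54, 7.27, 7.53 and 7.46 with vehicle. Estradiol arrays were all above vehicle arrays, and the rise was 0.42 ± 0.07 (SE, adjusted p = 0.00222). PRIM2 shares sequence with a copy, and 4 further probe sets that list it together with PRIM2BP changed by −0.04 to 0.35, so the signal is uncertain between them. POLA2, the accessory subunit, rose by 0.15 ± 0.04 (adjusted p = 0.0462) with separate groups, a call lost without any 1 array (adjusted p from 0.0714 to 0.119). The mean of its 3 probe sets gave 0.01. The catalytic subunits POLA1 and PRIM1 differed by 0.12 ± 0.04 and 0.10 ± 0.05 without passing, although their groups did not overlap.

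Among the strand-extending polymerases only POLD3 passed the test, and it had the largest change of all members. POLD3, an accessory subunit of polymerase delta, read 8.46, 8.47, 8.41 and 8.40 with estradiol and 7.98, 7.79, 7.78 and 7.91 with vehicle. The groups were well apart, and the rise was 0.57 ± 0.05 (SE, adjusted p = 0.000110), 1.49-fold. Its other probe set, at a mean level of 5.87, showed 0.14 without passing, and the mean of both gave 0.35. The catalytic subunit POLD1 differed by −0.04 ± 0.06 and POLD2 by −0.02 ± 0.04, so the 95% intervals were −0.18 to 0.10 and −0.10 to 0.07. POLE, the catalytic subunit of polymerase epsilon, differed by 0.14 ± 0.06 and POLE2 by 0.03 ± 0.04, both with overlapping groups. POLE2 minus POLE shifted by −0.10 (exact permutation p = 0.257, adjusted p = 0.257 over 4 pairs).

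Replication protein A coats single-stranded DNA, and 2 of its 3 subunits rose. RPA2 read 11.52, 11.51, 11.50 and 11.49 with estradiol and 11.18, 11.15, 11.28 and 11.23 with vehicle, a rise of 0.30 ± 0.04 (SE, adjusted p = 0.00121). The estradiol arrays lay close together, at 11.51 ± 0.01 (SD, n = 4). RPA3, the smallest subunit, rose by 0.19 ± 0.04 (adjusted p = 0.0160, or 0.0580 without estradiol replicate 4). RPA1 differed by 0.12 ± 0.04 (adjusted p = 0.102) with separate groups. The Okazaki fragment enzymes showed no call: FEN1, the flap nuclease, differed by 0.08 ± 0.04 and LIG1, the ligase, by 0.05 ± 0.05, with 95% intervals of −0.02 to 0.18 and −0.06 to 0.15.

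Of the genes that restore chromatin behind the fork, both chromatin assembly factor subunits rose. CHAF1B read 8.84, 8.97, 8.86 and 8.94 with estradiol and 8.57, 8.52, 8.59 and 8.52 with vehicle, a rise of 0.35 ± 0.05 (SE, adjusted p = 0.000640) without overlap. CHAF1A rose by 0.16 ± 0.04 (adjusted p = 0.0258), with 0.02 to 0.21 on its other probe sets. It did not pass with any 1 of estradiol replicates 1, 2 and 4 or vehicle replicates 3 and 4 left out (adjusted p from 0.0642 to 0.0795), nor with the mean of its probe sets (0.12, adjusted p = 0.130). SLBP, which binds the stem-loop of histone messages, differed by 0.09 ± 0.04 and UHRF1, which guides maintenance of DNA methylation, by 0.11 ± 0.04, neither passing.

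The last members regulate S phase entry and the fork checkpoint. CDC25A, a phosphatase that activates CDK2, rose by 0.18 ± 0.05 (SE, adjusted p = 0.0280), with 0.21 and 0.51 on its other probe sets and 0.30 for the mean of all 3. The call was lost without any 1 estradiol array or without vehicle replicate 4 (adjusted p from 0.0510 to 0.0807). MYBL2, a factor for late cell cycle genes, differed by −0.06 ± 0.04, and its estradiol arrays, 9.91 to 9.97, all lay below its vehicle arrays, 9.98 to 10.02. CLSPN, claspin, which passes the ATR signal to CHEK1, read 7.11, 7.25, 7.14 and 7.16 against 6.76, 6.73, 6.89 and 6.78. It rose by 0.38 ± 0.05 (adjusted p = 0.000816), and its 3 dimmer probe sets showed 0.15 to 0.42 without passing. TIPIN, a partner of TIMELESS at the fork, differed by 0.07 ± 0.05.

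Other genes of the pathway were counted from lists not drawn from the members, and 31 of 87 measured genes rose and 5 fell. The shares were 35.6% and 5.75%, against 8.29% and 9.60% of all genes. The 87 genes had a median level of 9.35, against 5.94 over all genes. With the filter at a mean of at least 8, 28.2% of all genes rose. There 11 of 19 origin and fork genes, 3 of 8 chromatin copying partners and 5 of 7 deoxynucleotide genes rose. So did 4 of 6 checkpoint genes, 10 of 14 upstream regulators and 2 of 10 turnover genes. Of 27 further origin and fork genes 9 rose and 0 fell, with a median log2 change of 0.12. They were led by RIF1, which controls replication timing (0.58 ± 0.09 SE), DONSON, a fork protection factor (0.40 ± 0.05), and MCMBP, an MCM chaperone (0.39 ± 0.05). The 8 other probe sets of RIF1 ran from −0.09 to 0.37, and the mean of all 9 gave 0.15 (limma adjusted p = 0.0383). For MCMBP the mean of its 3 probe sets gave 0.25. Of 10 chromatin copying partners 2 rose, the histone chaperones ASF1B (0.45 ± 0.04) and ASF1A (0.19 ± 0.05), and 0 fell. ASF1A lost its call without any 1 estradiol array or without vehicle replicate 4 (adjusted p from 0.0645 to 0.0887), and with the mean of its probe sets (adjusted p = 0.0621).

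Of 10 genes of deoxynucleotide supply 5 rose and 1 fell, with a median log2 change of 0.15. The largest were RRM2B (0.36 ± 0.09 SE), DCK (0.36 ± 0.06) and RRM2 (0.28 ± 0.04), which make or salvage DNA precursors, while the thymidylate synthase TYMS differed by 0.08 ± 0.04 without passing. RRM2B lost its call without estradiol replicate 2 or 4 (adjusted p = 0.0562 and 0.0522), and without estradiol replicate 4 the list held 2 rises. It held 3 when any 1 of estradiol replicates 1 to 3 or vehicle replicates 2 to 4 was left out. Of 9 checkpoint genes 4 rose and 0 fell, with a median log2 change of 0.08. The largest rises were those of the kinase WEE1, which restrains CDKs (0.57 ± 0.05), the ubiquitin ligase RFWD3 (0.40 ± 0.07) and CHEK1 (0.35 ± 0.06).

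Upstream regulators moved both ways. Of 19 such genes 9 rose and 2 fell, with a median log2 change of 0.20. CCNE2, an S phase cyclin, rose by 0.79 ± 0.08 (SE), E2F7, a repressor of the E2F family, by 0.62 ± 0.07, and E2F2, an activator, by 0.50 ± 0.05. The mean of all probe sets gave 0.32 for E2F2. RB1 rose by 0.54 ± 0.05, with 0.22 on its other probe set. E2F5 fell by 0.55 on the log2 scale, with −0.12 on its other probe set and −0.33 for the mean of both. E2F4 fell by 0.27, with −0.35 on its other probe set. E2F1 differed by 0.16 ± 0.06 (adjusted p = 0.104). Of 12 genes that govern turnover of CDT1, CDC6 and geminin 2 (16.7%) rose and 2 fell. The median log2 change of this list was 0.05. DTL, the adaptor that marks CDT1 for destruction, rose by 0.60 ± 0.05 and FBXO5, an inhibitor of the ligase that degrades geminin, by 0.32 ± 0.06. CUL4A, a scaffold of the DTL ligase, fell by 0.24 on the log2 scale, with adjusted p = 0.0651 for the mean of its probe sets. SKP2 fell by 0.22 (limma adjusted p = 0.00504), with −0.22 and −0.20 on its other probe sets. All p-values in these counts come from the fit over all genes.

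**Figure D5:**
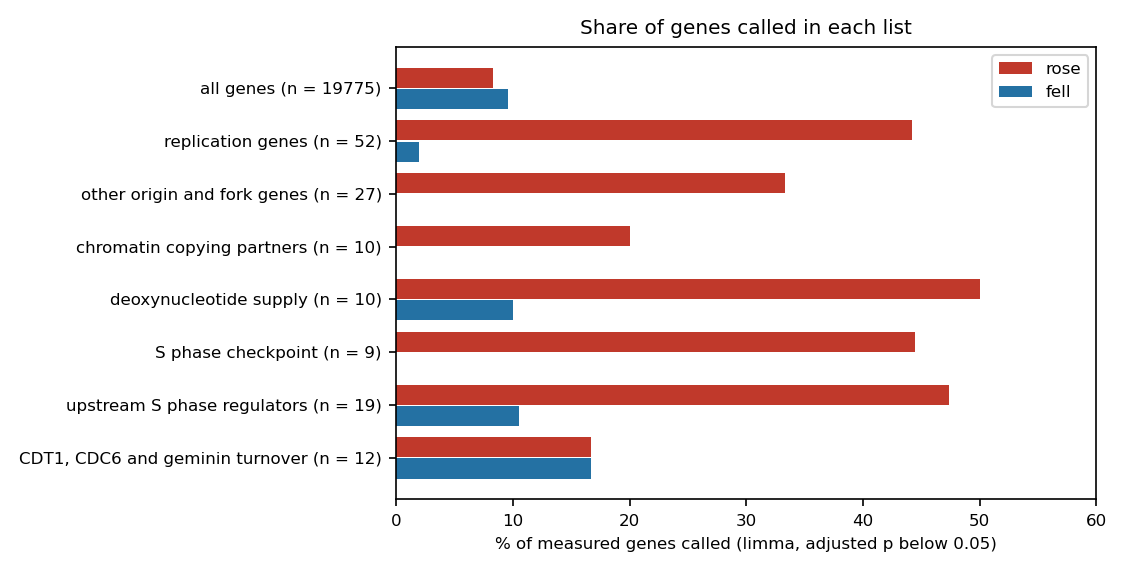
Share of measured genes that rose (red) and fell (blue) in all genes, in the 52 members and in the 6 lists of other pathway genes (limma, adjusted p below 0.05). The share that rose was 8.29% of all genes and 44.2% of the members, and it was lowest among the pathway lists at 16.7%, for turnover of CDT1, CDC6 and geminin. Not drawn here, 28.2% of all genes with a mean level of at least 8 rose.

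RNA of erythroid markers was read in both groups, for some at a lower level after estradiol. Of 10 such markers 8 were measured, at mean levels of 8.32 to 13.95. Of these 4 fell after estradiol, by log2 changes of −1.61 (HEMGN), −0.89 (GATA1), −0.71 (KLF1) and −0.17 (HBE1, with 0.02 on its other probe set), and 4 were not called. The mean over the list was 10.51 to 10.54 on the estradiol arrays and at least 10.92 on every vehicle array, and the part of this shift in the replication gene values was not tested. Markers of lymphocytes (8 measured) and of fibroblasts (7 measured) showed 0 calls, with gene means of 3.66 to 7.96. Their list means overlapped between the groups.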

How the data were processed

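Total RNA of 8 cultures was hybridised to 1-colour Affymetrix arrays, 4 with estradiol and 4 with vehicle, grouped by the treatment in the labels. The deposited values are log2 levels per probe set from RMA (background correction, quantile normalization and probe summary), per the submitters' processing notes; no version is named there. RMA makes the arrays' distributions alike, so changes are relative to the other probe sets, and precision is limited by how many arrays there are. Array medians lay between 4.97 and 5.08.

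Values were used as deposited, with 1 probe set per gene. limma 3.58.1 in R 4.3.3 (lmFit, eBayes without trend, two-sided) compared the groups over 19775 genes, and genes with Benjamini-Hochberg adjusted p below 0.05 were called. The fit was tested on simulated data. No filter on dim genes was used. The 4 gene pairs were tested by exact two-sided permutation over 70 assignments. Motifs were counted by exact letters in RefSeq promoters. Figures used matplotlib 3.10.9.

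Values per array are given for the 10 called members with the largest change and members that fell. They are also given for CDC6, CDT1, GMNN, MCM2 to MCM7, PCNA and some uncalled members. For each other list only changes are given, for up to 3 called genes, with CCNE2, E2F1, E2F2, RRM2 and TYMS whatever their values. RB1, E2F4 and SKP2 were added after their values were seen. Further members with per-array values (MCM10, CDC7, CDC45 and others) were chosen after their values were seen. The members and lists were chosen with earlier results of these data known. Alternatives were centring, normalization, filters, probe set choice, limma options, a stricter threshold, a block by replicate number and leaving out each array. Same-numbered arrays did not deviate together: their correlations were −0.05, −0.21, 0.09 and 0.11, so the numbers were not taken as pairs.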

Additional observations from a re-analysis of the deposited data

Results flagged for a closer look

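Of 104 groups of 4 arrays (52 members in both conditions), 8 held an array far from the other 3, where chance gives about 1 in 20. With estradiol, replicate 1 was highest for ORC2 (8.97, the nearest array at 8.90), RFC5 (10.00 against 9.91) and PRIM1 (10.40 against 10.36). Replicate 3 was lowest for MCM3 (11.15 against 11.19). With vehicle, replicate 1 was highest for GMNN (11.93 against 11.89) and replicate 3 was highest for MCM3 (11.13 against 11.06). Replicate 4 was lowest for MCM4 (10.32 against 10.38) and replicate 2 was lowest for POLE2 (9.80 against 9.91). Of these genes GMNN and MCM4 rose, and both lost their call without some single arrays.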

How the results depend on the processing

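Of 23 member rises 14 kept their call under all alternatives run at adjusted p below 0.05 that tested them, and limma called between 15 and 22 with 1 array left out (0 to 1 fell). In those runs 1276 to 1792 of all genes rose, against 1639 in the main run. The count of members that rose was 15 with a replicate block, 35 with a trended, robust prior and 14 at adjusted p below 0.01, where 1040 of all genes rose and 1139 fell. Of all genes 6.23% rose with the replicate block and 10.7% with the trended, robust prior, against 8.29% in the main run. The count of members that fell was 0 with the replicate block, with median centring, with the mean of all probe sets, with every probe set on its own and at adjusted p below 0.01, and 2 with renewed quantile normalization. With that normalization 20 members and 8.71% of all genes rose. The median log2 change of the members was then 0.10, against 0.14 in the main run. With arrays centred on their medians 17 members and 7.82% of all genes rose. The filter at a mean of at least 8 was chosen after seeing the data. With the mean of all probe sets CDT1 minus GMNN was 0.0771, CDC7 minus DBF4 0.25 and ORC1 minus ORC2 0.41, and the last 2 had adjusted p = 0.0571 by exact permutation. CDC7 and DBF4 have 1 probe set each, so averaging could not change that pair. The adjusted p of both pairs depends on the other pairs, of which CDT1 minus GMNN no longer reached the smallest exact p. With the replicate block the pair shifts were 0.22, 0.25 and 0.38. Exact sign flips gave adjusted p = 0.167 there, the smallest reached. Sign flips over so few arrays cannot give a p below 0.05, so that test could not decide whether the shifts hold. With 1 array left out the pair shifts ran from 0.18 to 0.24, 0.23 to 0.27 and 0.37 to 0.40. Signs turned only for differences that were not called: POLD2 0.0104 with median centring, DBF4 −0.00542 with 75th percentile centring, −0.0277 with quantile normalization, −0.00493 with array weights and −0.0239 to 0.0255 with 1 array left out, POLE2 −0.000383 with quantile normalization, TYMS −0.0106 with the mean of probe sets, and ORC4 −0.0618 to 0.00332 with 1 array left out. Where a call changed, the cause was not tested.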
